A study of Danio rerio with 14 samples.

Results

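A set of 7 genes of glucose production and amino acid breakdown were followed in the livers of adult zebrafish that differed in diet and in ahcy genotype. They were pck2, g6pc1a.2, tat, gpt, got2b, tdo2a and cebpb, chosen by their symbols in the platform's probe annotation, and they made up 8 of the 15134 probe sets tested, with 2 probe sets for gpt and 1 for each of the other 6 genes. All 8 probe sets passed the filter on low values, a log2 value above 4 on at least 2 arrays. The genes were chosen with earlier results of these arrays known, and the difference between diets in ahcy+/+ livers is among the values behind that choice, so the values, intervals and calls given for it describe the genes and are no test of them.

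There were 14 arrays, each of the liver of an adult fish. They comprised 2 arrays of overfed ahcy+/- fish, 5 of overfed ahcy+/+ fish, 3 of ahcy+/- fish on the regular diet and 4 of ahcy+/+ fish on the regular diet, and their number limits the precision. The ahcy gene encodes the enzyme that breaks down S-adenosylhomocysteine, the product left when S-adenosylmethionine donates its methyl group, and ahcy+/- fish carry 1 mutant copy. Over a month, 1 tank with both genotypes was given the typical amount of food and 1 tank was given food in excess. The effect of a diet and that of its tank therefore cannot be told apart, and p-values here reflect how fish of 1 tank vary. The labels give no sex.

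The liver makes new glucose from lactate, glycerol and the carbon skeletons of amino acids. Aminotransferases move the amino group of an amino acid onto a keto acid, which frees the carbon skeleton; phosphoenolpyruvate carboxykinase then commits the carbon to glucose, and glucose-6-phosphatase releases the sugar. In mammals several enzymes of these pathways, though not all, rise in fasting, under glucagon and glucocorticoids, and insulin lowers several of them. C/EBP beta, the product of cebpb, is a transcription factor that acts at several of these genes in mammalian liver.

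The livers held the markers of hepatocytes at high level. The mean log2 value of 12 hepatocyte genes lay between 13.18 and 13.46 on the overfed arrays and between 12.68 and 13.29 on the regular-diet arrays. Markers of exocrine pancreas ranged from 7.22 to 12.52 on overfed and from 8.97 to 13.23 on regular-diet arrays, markers of intestine from 4.95 to 6.15 on overfed and from 5.72 to 9.59 on regular-diet arrays, and markers of skeletal muscle from 5.75 to 6.10 on overfed and from 6.13 to 6.81 on regular-diet arrays. Array 9 of the ahcy+/+ fish on the regular diet stood apart, with the highest vitellogenin level of all arrays at 13.90, the lowest hepatocyte level at 12.68, and a mean correlation of 0.912 with its own group. The ahcy probe set itself did not separate the genotypes: it averaged 13.29 ± 0.06 in overfed ahcy+/- livers (SD, n = 2) and 13.21 ± 0.05 in overfed ahcy+/+ livers (SD, n = 5; exact permutation test, 2-sided, p = 0.238), and 13.26 ± 0.07 in ahcy+/- (SD, n = 3) and 13.16 ± 0.06 in ahcy+/+ livers on the regular diet (SD, n = 4; exact permutation test, 2-sided, p = 0.143). The smallest p-values these groups allow are 0.0476 and 0.0286.

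All 7 genes stood higher after overfeeding than on the regular diet in both genotypes. In ahcy+/- livers the log2 differences ran from 0.50 for got2b to 0.95 for tat, with a median of 0.80, against a median of -0.09 over all probe sets tested. In ahcy+/+ livers they ran from 0.29 for g6pc1a.2 to 1.17 for cebpb, with a median of 0.87, against -0.03 over all probe sets. Every overfed array stood above every regular-diet array, 7 against 7, for pck2, tat, tdo2a and cebpb, which is 4 of the 7 genes against 2.09% of all probe sets. Within ahcy+/- livers this held for pck2, g6pc1a.2, tat, tdo2a and cebpb (12.2% of all probe sets), and within ahcy+/+ livers for pck2, tat, got2b, tdo2a and cebpb (4.75% of all probe sets). A bulk liver sample cannot tell fewer cells of a type from less RNA per cell.

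**Figure D1:**
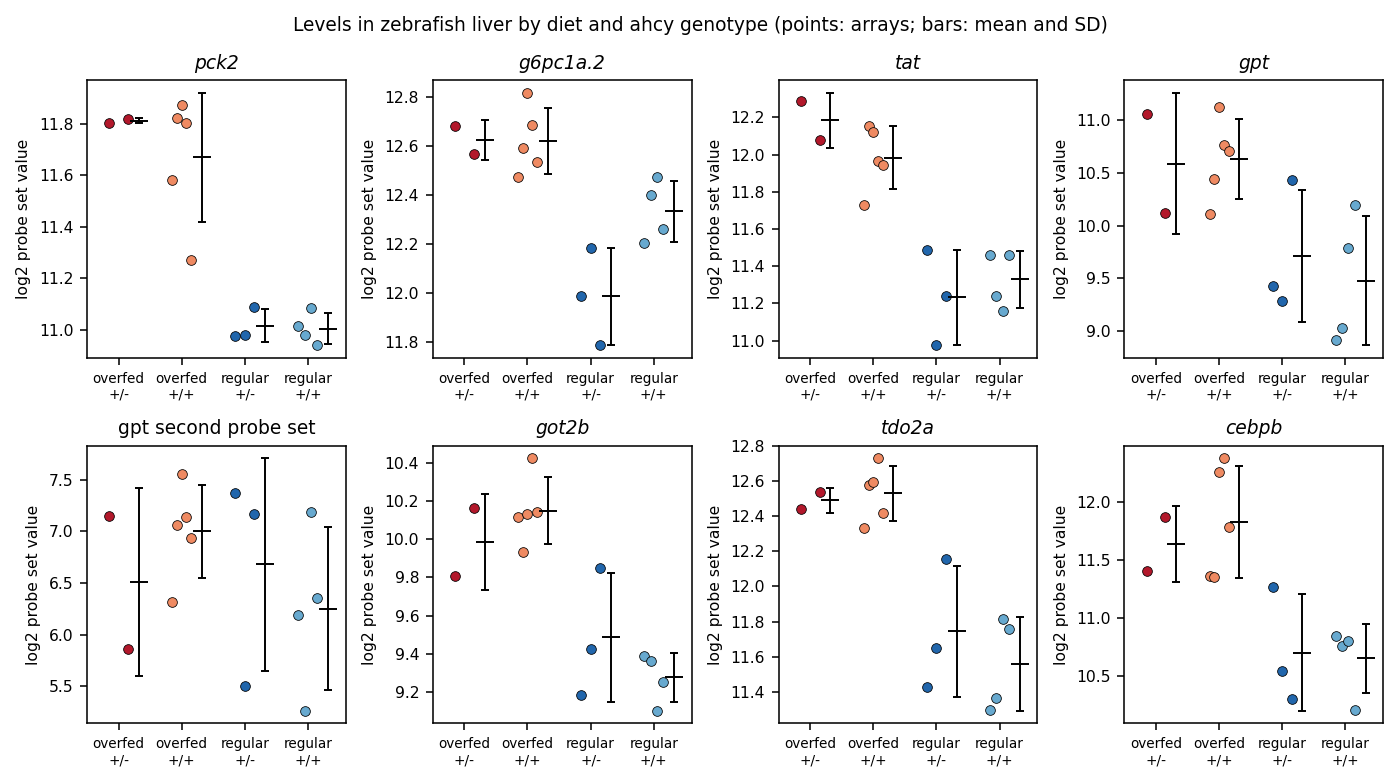
Log2 value of each of the 8 probe sets (vertical axes, each with its own range that does not start at 0) on each of the 14 arrays, by diet and ahcy genotype. Points are arrays and bars give the mean and SD of a group. For pck2, tat, tdo2a and cebpb all 7 overfed arrays lie above all 7 regular-diet arrays, while the second probe set of gpt overlaps between all groups.

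Of the enzymes of glucose production, pck2 encodes phosphoenolpyruvate carboxykinase of the mitochondria. Its log2 values were 11.80 and 11.82 in overfed ahcy+/- livers, against 10.97, 10.98 and 11.09 in ahcy+/- livers on the regular diet. In ahcy+/+ livers they were 11.58, 11.82, 11.87, 11.80 and 11.27 after overfeeding, against 11.01, 10.98, 11.09 and 10.94 on the regular diet. The 7 regular-diet arrays lay within a narrow band, and the lowest overfed array, array 7 of the ahcy+/+ fish, was still 0.18 above the highest of them. Overfed minus regular diet, the log2 difference was 0.80 ± 0.16 in ahcy+/- (SE, 1.74-fold) and 0.67 ± 0.12 in ahcy+/+ livers (SE, 1.59-fold).

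The gene g6pc1a.2 encodes a catalytic subunit of glucose-6-phosphatase, the last enzyme of glucose release. Its log2 values were 12.68 and 12.57 in overfed ahcy+/- livers, against 11.99, 12.19 and 11.79 in ahcy+/- livers on the regular diet. In ahcy+/+ livers they were 12.47, 12.59, 12.82, 12.69 and 12.54 after overfeeding, against 12.20, 12.40, 12.47 and 12.26 on the regular diet. The diets did not overlap in ahcy+/- fish, whereas in ahcy+/+ fish the lowest overfed array and the highest regular-diet array had the same value to 3 decimals. By diet, the levels differed by 0.64 ± 0.15 in ahcy+/- (SE, 1.56-fold) and 0.29 ± 0.11 in ahcy+/+ livers (SE, 1.22-fold). The deposited files do not say whether this probe set also reads its paralogue g6pc1a.1, which was not analysed here.

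Of the aminotransferases, tat encodes tyrosine aminotransferase, the first enzyme of tyrosine breakdown and a classical glucocorticoid target in mammalian liver. Its log2 values were 12.29 and 12.08 in overfed ahcy+/- livers, against 11.49, 10.97 and 11.24 in ahcy+/- livers on the regular diet. In ahcy+/+ livers they were 11.73, 12.15, 12.12, 11.96 and 11.95 after overfeeding, against 11.46, 11.24, 11.16 and 11.46 on the regular diet. No overfed array overlapped with a regular-diet array, and the gap between the diets, 0.24, was the widest of the 7 genes. The difference between diets was 0.95 ± 0.17 in ahcy+/- (SE, 1.93-fold) and 0.65 ± 0.13 in ahcy+/+ livers (SE, 1.57-fold).

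The gene gpt encodes alanine aminotransferase, which turns alanine into pyruvate. Its brighter probe set read 11.06 and 10.12 in overfed ahcy+/- livers, against 9.43, 9.28 and 10.43 in ahcy+/- livers on the regular diet. In ahcy+/+ livers it read 10.11, 10.45, 11.13, 10.77 and 10.71 after overfeeding, against 8.91, 9.02, 9.78 and 10.20 on the regular diet. The values spread widely within groups, with SDs from 0.38 to 0.67, and 5 of the 7 overfed arrays exceeded all regular-diet arrays. Between diets gpt differed by 0.88 ± 0.44 in ahcy+/- (SE, 1.84-fold) and 1.15 ± 0.33 in ahcy+/+ livers (SE, 2.23-fold).

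The second probe set of gpt was dimmer and followed the first only in part. It read 7.15 and 5.86 in overfed ahcy+/- livers, against 7.38, 5.50 and 7.16 in ahcy+/- livers on the regular diet, and from 6.32 to 7.56 with a median of 7.06 in overfed ahcy+/+ livers, against 5.26 to 7.19 with a median of 6.27 in ahcy+/+ livers on the regular diet. All groups overlapped. Both probe sets were lowest on array 2 and highest on array 4 of the overfed ahcy+/+ fish, higher on array 1 than on array 4 of the overfed ahcy+/- fish, and lowest on array 7 of the regular-diet ahcy+/- fish. In that group the brighter was highest on array 8 and the second on array 3. In regular-diet ahcy+/+ fish the brighter was lowest on array 2 and highest on array 9, and the second lowest on array 5 and highest on array 6. The diet difference of the second was -0.17 ± 0.61 (SE) in ahcy+/- and 0.75 ± 0.45 (SE) in ahcy+/+ livers, so the 2 probe sets of gpt differed in sign in ahcy+/- fish. The values of gpt elsewhere are those of the brighter probe set.

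The gene got2b encodes a mitochondrial aspartate aminotransferase, part of the malate-aspartate shuttle. Its log2 values were 9.81 and 10.16 in overfed ahcy+/- livers, against 9.18, 9.43 and 9.85 in ahcy+/- livers on the regular diet. In ahcy+/+ livers they were 10.12, 9.93, 10.13, 10.42 and 10.14 after overfeeding, against 9.39, 9.36, 9.10 and 9.26 on the regular diet. The diets were well apart in ahcy+/+ fish, and in ahcy+/- fish array 8 of the regular diet exceeded overfed array 1. The diet difference was 0.50 ± 0.20 in ahcy+/- (SE, 1.41-fold) and 0.87 ± 0.14 in ahcy+/+ livers (SE, 1.83-fold).

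The gene tdo2a encodes tryptophan 2,3-dioxygenase, which opens the ring of tryptophan as the first step of the kynurenine pathway. Its log2 values were 12.44 and 12.54 in overfed ahcy+/- livers, against 11.43, 11.65 and 12.16 in ahcy+/- livers on the regular diet. In ahcy+/+ livers they were 12.34, 12.58, 12.60, 12.73 and 12.42 after overfeeding, against 11.29, 11.36, 11.81 and 11.76 on the regular diet. The overfed arrays were close together in both genotypes and all lay above the regular-diet arrays, by at least 0.18. The diet difference was 0.75 ± 0.22 in ahcy+/- (SE, 1.68-fold) and 0.97 ± 0.16 in ahcy+/+ livers (SE, 1.96-fold).

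The transcription factor gene cebpb had log2 values of 11.41 and 11.87 in overfed ahcy+/- livers, against 11.26, 10.54 and 10.30 in ahcy+/- livers on the regular diet. In ahcy+/+ livers it had 11.36, 11.35, 12.25, 12.37 and 11.78 after overfeeding, against 10.85, 10.76, 10.80 and 10.21 on the regular diet. The diets did not overlap, but the gap of 0.09 was the narrowest among the 4 genes without overlap. Overfed ahcy+/+ arrays 4 and 6 stood high, and array 9 of the regular-diet ahcy+/+ fish stood low. The diet difference was 0.93 ± 0.35 in ahcy+/- (SE, 1.91-fold) and 1.17 ± 0.26 in ahcy+/+ livers (SE, 2.25-fold).

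**Figure D2:**
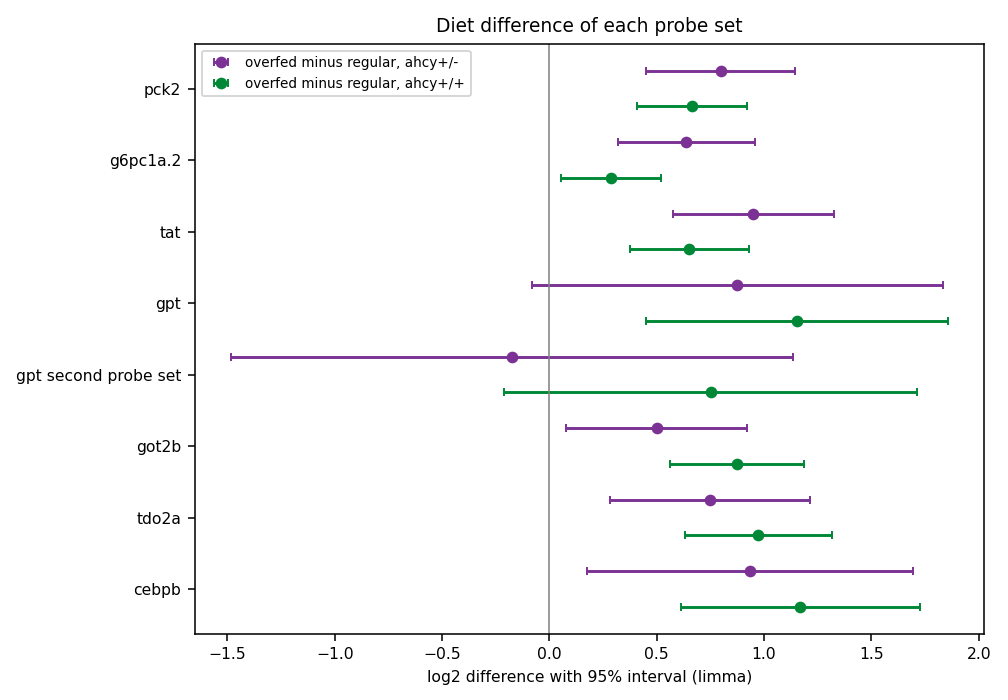
Log2 difference of the overfed minus the regular diet (horizontal axis) with its 95% interval from limma for each of the 8 probe sets, in ahcy+/- and in ahcy+/+ livers; the intervals describe genes that were chosen with these results known. The intervals of g6pc1a.2, pck2, tat, got2b, tdo2a and cebpb lie above 0 in both genotypes, while that of gpt in ahcy+/- livers and both intervals of its second probe set include 0.

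The fit across all probe sets was then used to set these differences against the spread between fish. A call is an adjusted p under 0.05 from limma with Benjamini-Hochberg adjustment over all 15134 probe sets. In ahcy+/+ livers, where 4.5% of all probe sets were called and 3.07% were called higher, pck2, tat, got2b, tdo2a and cebpb were among them and g6pc1a.2 and gpt were not. This count follows from the choice of the genes, and nothing is read from it. In ahcy+/- livers, with 2 arrays against 3, none of the 7 genes was called, and 0.0991% of all probe sets were (15 probe sets). At an unadjusted p under 0.05 the limma fit counted 6 of the 7 genes there, all but gpt and all higher after overfeeding, against 14.2% of all probe sets in either direction and 6.3% in the higher one.

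The values in ahcy+/- livers come from other fish than those in ahcy+/+ livers, but the results of all groups were known when the genes were chosen, so they are no independent support. There the adjusted p from limma was 0.0749 for tat, 0.0847 for pck2, 0.112 for g6pc1a.2, 0.163 for tdo2a, 0.267 for cebpb, 0.284 for got2b and 0.391 for gpt. With each array centred on its median, which moved the median of all probe sets in this comparison by 0.107, tat (adjusted p = 0.0256) and pck2 (adjusted p = 0.0377) passed the threshold in the limma fit. Leaving out array 9 of the regular-diet ahcy+/+ fish also brought tat past it (adjusted p = 0.0382), and leaving out overfed ahcy+/+ array 7 brought pck2 past it (adjusted p = 0.0217). Neither array is of ahcy+/- fish, so the differences stayed at 0.95 for tat and 0.80 for pck2. Only the estimate of the spread, shared by all groups, and the adjustment changed. With quantile normalization neither gene passed (adjusted p = 0.119 for tat and 0.0994 for pck2 in limma). When either overfed ahcy+/- array was left out, the differences in ahcy+/- livers lay between 0.40 and 1.17 (log2) without array 1 and between 0.32 and 1.35 without array 4; gpt moved most, to 0.40 and 1.35, and for got2b the value without array 4 was 0.32. Quantile normalization lowered the diet difference in ahcy+/+ livers to 0.07 for g6pc1a.2 and to 0.36 for tat.

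Most markers of other tissues had lower values in overfed than in regular-diet ahcy+/+ livers, against 55.6% of all probe sets with lower values. Few of these markers passed the threshold. Lower values were found for 12 of 12 measured exocrine pancreas markers, 5 of 5 endocrine pancreas, 6 of 7 intestine, 9 of 10 skeletal muscle and 8 of 9 leukocyte markers, of which limma called 1, of intestine. It also held for 4 of 5 cholangiocyte and 3 of 5 ovary markers, none of them called. Of 3 vitellogenin genes 2 were lower and none was called, with the mean level on regular-diet array 9 at 13.90. The other regular-diet ahcy+/+ arrays ranged from 5.37 to 5.56 in vitellogenin level, and the overfed ahcy+/+ arrays from 6.31 to 9.28. Among erythrocyte markers 4 of 5 were higher and none was called. Of 4 stellate, endothelial and matrix markers 2 were higher, and limma called 1, kdrl, which differed by 0.56 (adjusted p = 0.0212 in limma). Of the hepatocyte markers 11 of 12 had higher values, and 1 was called. In ahcy+/- livers exocrine pancreas markers averaged 9.87 after overfeeding, with the arrays at 12.52 and 7.22, against 12.31 on the regular diet. The ahcy+/+ means were 9.56 and 10.52. Intestine markers averaged 5.57 in overfed and 7.59 in regular-diet ahcy+/- livers, and muscle markers 5.86 and 6.51. Hepatocyte, erythrocyte, vitellogenin and stellate, endothelial and matrix means were higher in overfed ahcy+/- livers, and the others lower. With the pancreas and intestine levels as covariates, the diet differences of the 7 genes lay between 0.39 and 1.45 in ahcy+/- and between 0.36 and 1.42 in ahcy+/+ livers. With the hepatocyte level as covariate they lay between 0.49 and 1.02 in ahcy+/- and between 0.23 and 1.33 in ahcy+/+ livers. For cebpb both covariates lowered the difference, to 0.52 and 0.69 in ahcy+/- and to 0.82 and 0.87 in ahcy+/+ livers, where its call ended (adjusted p = 0.153 and 0.109 in limma). That call also ended with quantile normalization (adjusted p = 0.0502) and when regular-diet array 2, 5 or 6 or overfed array 4 or 6 of the ahcy+/+ fish was left out (adjusted p from 0.0522 to 0.0636 in limma). With the vitellogenin level as covariate the differences of the 7 genes lay between 0.28 and 1.19 in ahcy+/+ livers. In ahcy+/- livers they then lay between 0.49 for gpt and 1.28 for cebpb, against 0.88 and 0.93 without it. The part of the muscle, leukocyte, erythrocyte, endothelial and endocrine pancreas markers was not tested.

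**Figure D3:**
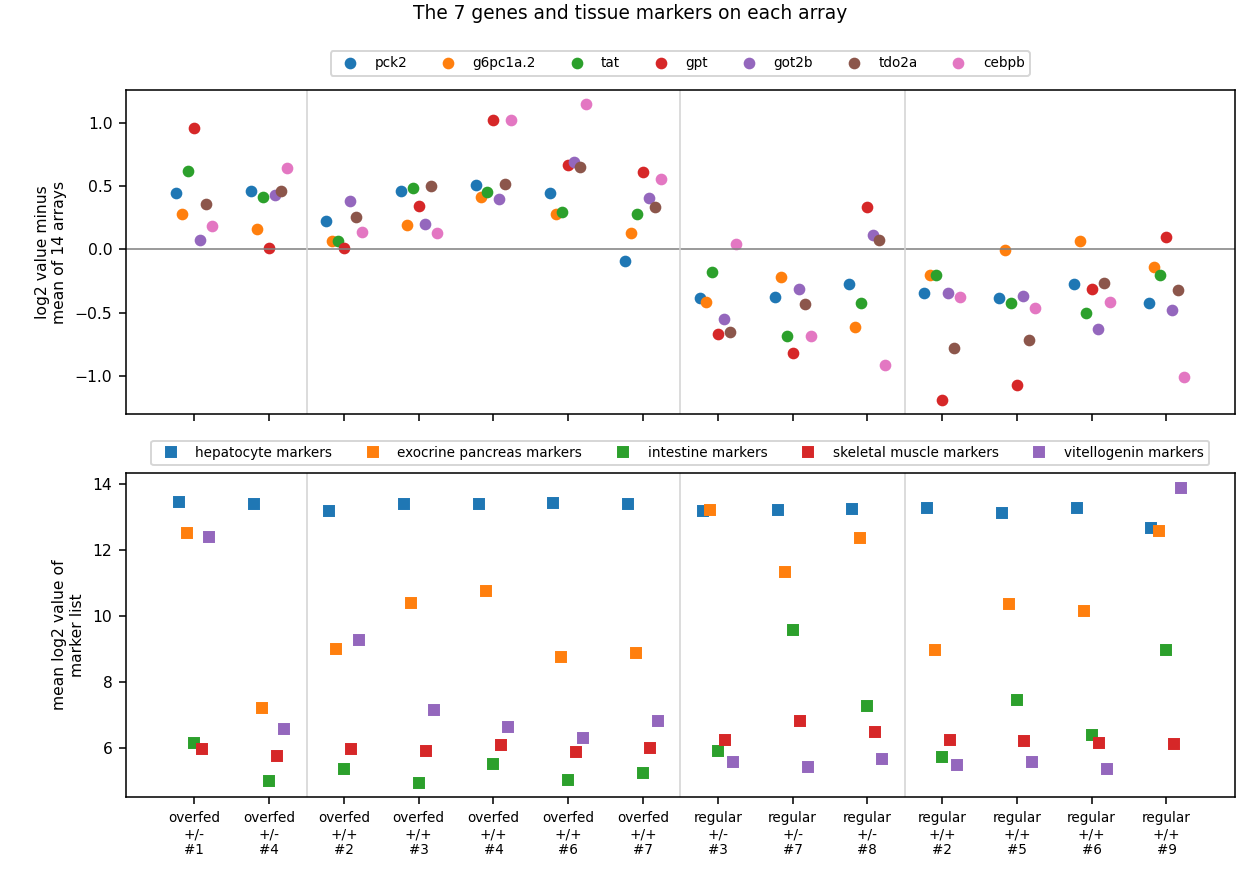
Upper panel, log2 value of each of the 7 genes (brighter probe set of gpt) minus its mean over the 14 arrays; lower panel, mean log2 value of 5 marker lists, both by array, with the arrays ordered by group and number. Vertical lines separate the groups. The 7 genes lie mostly above 0 on overfed and mostly below 0 on regular-diet arrays; array 9 of the regular-diet ahcy+/+ fish has the highest vitellogenin value, 13.90.

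Within a group the 7 genes put the fish in the same order only in part. Of the overfed ahcy+/+ arrays, array 2 was above its group's mean for none of the 7 genes and was the lowest of its group for g6pc1a.2, tat, gpt and tdo2a. Arrays 4 and 6 were above the mean for 6 genes each, array 3 for 3 genes and array 7 for 1 gene. Array 2 also had the lowest hepatocyte level of that group, 13.18, and its highest vitellogenin level, 9.28, and the part of either in these values was not tested. On the regular diet the order of arrays changed from gene to gene: in ahcy+/- fish array 8 was the highest of 3 for pck2, gpt, got2b and tdo2a and the lowest for g6pc1a.2 and cebpb.

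Genotype was compared within each diet to ask whether the loss of 1 ahcy copy moved these genes. After overfeeding the log2 differences of ahcy+/- minus ahcy+/+ livers ran from -0.19 for cebpb to 0.20 for tat, with a median of -0.04, against -0.01 over all probe sets. On the regular diet they ran from -0.35 for g6pc1a.2 to 0.24 for gpt, with a median of 0.05, the same as over all probe sets. No probe set of any gene was called by limma in either comparison; at an unadjusted p under 0.05 it counted 260 probe sets after overfeeding (1.72%) and 459 on the regular diet (3.03%). The 95% intervals after overfeeding still allowed a difference of -0.18 to 0.46 for pck2, -0.14 to 0.55 for tat, -0.55 to 0.22 for got2b and -0.92 to 0.83 for gpt.

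The gene with a genotype difference at an unadjusted p under 0.05 was g6pc1a.2 on the regular diet. It averaged 11.99 ± 0.20 in ahcy+/- (SD, n = 3) and 12.33 ± 0.12 in ahcy+/+ livers (SD, n = 4), a difference of -0.35 ± 0.12 (SE) with a 95% interval of -0.61 to -0.08. All 3 ahcy+/- arrays lay below all 4 ahcy+/+ arrays, as 0.905% of all probe sets did on this diet, where 37.3% had a difference below 0. The 0.905% covers this direction only, and the other direction was not counted. The unadjusted p was 0.0148 and the adjusted p 1 in limma, so the difference did not pass. After overfeeding g6pc1a.2 averaged 12.63 ± 0.08 in ahcy+/- (SD, n = 2) and 12.62 ± 0.13 in ahcy+/+ livers (SD, n = 5), a difference of 0.00 ± 0.14 (SE).

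The interaction asks whether the diet difference itself differed between genotypes. It ran from -0.37 for got2b to 0.35 for g6pc1a.2 among the 7 genes, with pck2, g6pc1a.2 and tat above 0 and gpt, got2b, tdo2a and cebpb below. For g6pc1a.2 the 95% interval was -0.05 to 0.75, for got2b -0.90 to 0.15 and for cebpb -1.17 to 0.71. No probe set was called by limma, and 289 had an unadjusted p under 0.05 (1.91%), none of them of the 7 genes.

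**Figure D4:**
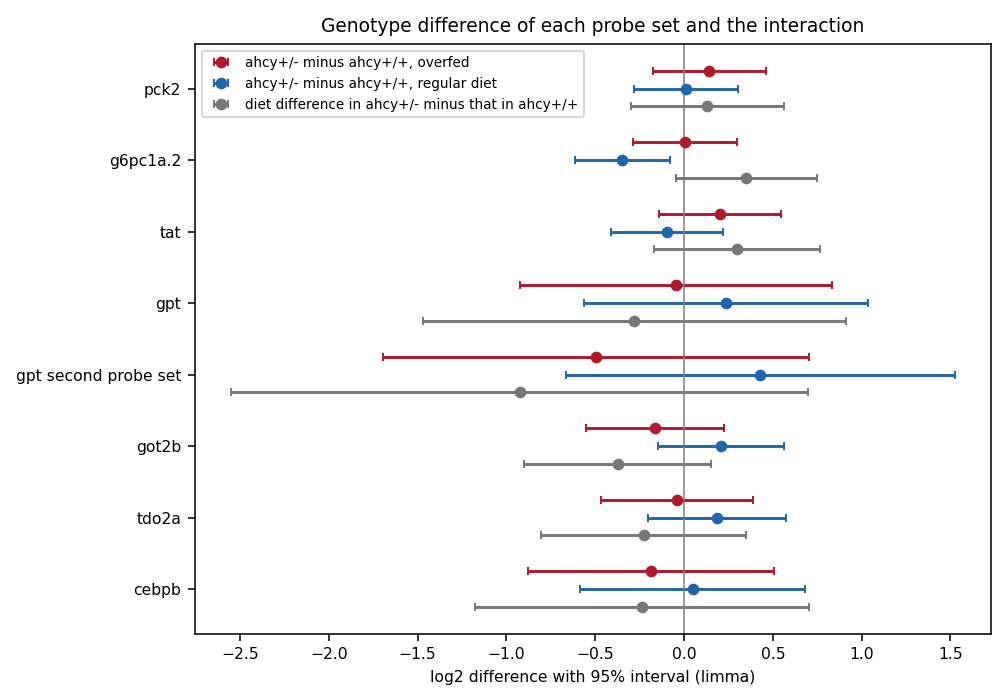
Log2 difference of ahcy+/- minus ahcy+/+ livers after overfeeding and on the regular diet, and the interaction (diet difference in ahcy+/- minus that in ahcy+/+ livers), on the horizontal axis with 95% intervals from limma, for the 8 probe sets. Every interval includes 0 except that of g6pc1a.2 on the regular diet, which runs from -0.61 to -0.08.

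Ordered by group mean, both overfed groups stood above both regular-diet groups for all 7 genes, and the 2 overfed groups were neighbours that did not differ beyond their spread. The overfed ahcy+/- mean was the higher for pck2, g6pc1a.2 and tat, and the overfed ahcy+/+ mean for gpt, got2b, tdo2a and cebpb. Among the regular-diet groups the ranges overlapped for every gene other than g6pc1a.2. Across the 14 arrays, each centred on its gene's mean, pck2 and tat were the most alike pair, with a mean absolute difference of 0.16 (log2), followed by pck2 and tdo2a with 0.17. The least alike pairs were g6pc1a.2 with gpt and gpt with cebpb, at 0.50 each.

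By the same measure the genes most like each of the 7 were found among the probe sets of 1 gene. Those whose symbol is a clone or locus placeholder were left out. For pck2 the most alike genes were selenop, which encodes the secreted selenoprotein P (mean absolute difference 0.10), and the kinase gene jak1 (0.11), against a median of 0.41 over the probe sets searched. For g6pc1a.2 they were lman2, a cargo receptor of the secretory pathway (0.10), and ptprk (0.12), against a median of 0.31. For tat they were kdrl, a receptor for vascular endothelial growth factor and one of the endothelial markers above (0.11), and prnprs3 (0.13), against 0.43. For got2b they were pfn2a, a profilin (0.12), and pdlim5b (0.12), against 0.43, and for tdo2a the amino acid transporter gene slc38a4 (0.12) and the phosphate transporter gene slc20a1a (0.14), against 0.50. The nearest genes to gpt were tmem131 (0.25) and chp1 (0.26), against 0.62, and those to cebpb were tob1a (0.21) and igfbp1a (0.21), against 0.60. For gpt and cebpb both these differences and the medians were larger than for the other genes. The nearest of many probe sets lie below the median by construction. Group means were not removed, so the measure includes the difference between diets. All these nearest genes had higher values after overfeeding, by 0.32 for ptprk to 1.27 for igfbp1a in ahcy+/+ livers.

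Most other measured genes of these pathways did not pass the threshold. Of 8 lists with 198 genes, 109 genes were measured, and among the 102 that are not one of the 7, limma called 4 higher and 2 lower after overfeeding in ahcy+/+ livers and none in ahcy+/- livers. These 6 genes are 5.88% of the 102, close to the 5.16% called among all 8699 genes read from their brightest probe set. Of the gluconeogenesis enzymes without pck2 and g6pc1a.2, 6 of 12 stood higher and 6 lower in ahcy+/+ livers, and 1 passed the threshold: mdh1ab, a cytosolic malate dehydrogenase, fell by 0.40 on the log2 scale (adjusted p = 0.0277 in limma). It was dim, with means of 6.06 in overfed and 6.45 in regular-diet ahcy+/+ livers. Its paralogue mdh1aa averaged 13.6 and 13.5 in these groups and differed by 0.05 ± 0.14 (SE, adjusted p = 0.891 in limma). From the same list, the brighter probe set of slc37a4a differed by 0.79 in ahcy+/+ livers and did not pass (adjusted p = 0.12 in limma). Its other probe set differed by 1.06 and passed (adjusted p = 0.02 in limma). In ahcy+/- livers these probe sets differed by 0.94 and 0.95, and neither passed. The cytosolic carboxykinase gene pck1 averaged 11.91 ± 0.89 in overfed (SD, n = 5) and 11.64 ± 0.49 in regular-diet ahcy+/+ livers (SD, n = 4), a difference of 0.26 ± 0.39 (SE) that did not pass in limma (adjusted p = 0.757). In ahcy+/- livers pck1 differed by 0.15 ± 0.53 (SE).

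Among the other genes of transamination and glutamate handling, 9 of 13 stood higher and 4 lower after overfeeding in ahcy+/+ livers, and none passed the threshold in limma. The cytosolic aspartate aminotransferase gene got1 differed by -0.22 ± 0.29 (SE) in ahcy+/- and by 0.63 ± 0.21 (SE, adjusted p = 0.108 in limma) in ahcy+/+ livers. The second mitochondrial aspartate aminotransferase gene, got2a, differed by 0.28 ± 0.15 (SE) in ahcy+/- and 0.33 ± 0.11 in ahcy+/+ livers (SE, adjusted p = 0.114 in limma), against 0.50 and 0.87 for got2b. The paralogue gpt2 of gpt was dim, with group means from 3.94 to 4.27. It differed by 0.10 ± 0.14 (SE) in ahcy+/- and 0.14 ± 0.10 in ahcy+/+ livers (SE, adjusted p = 0.492 in limma). Of tryptophan, phenylalanine and tyrosine breakdown, the 4 measured genes besides tdo2a and tat differed by -0.21 to 0.07 in ahcy+/- and by -0.12 to 0.20 in ahcy+/+ livers, and none passed.

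In the breakdown of the other amino acids, 2 of 28 measured genes passed the threshold in ahcy+/+ livers, in opposite directions. The gene cbsb, a cystathionine beta-synthase that draws homocysteine into cysteine synthesis, rose by 1.54 ± 0.18 (SE, adjusted p = 0.00165 in limma), from its brighter probe set; its other probe set differed by 0.35 and did not pass. The gene bckdk, the kinase that switches off the branched-chain keto acid dehydrogenase, had a difference of -1.51 ± 0.25 (SE, adjusted p = 0.00859 in limma). In ahcy+/- livers they differed by 1.22 ± 0.25 (SE, adjusted p = 0.0847 in limma) for cbsb and -1.09 ± 0.34 (SE, adjusted p = 0.199 in limma) for bckdk. In the urea cycle and arginine list slc25a12, a mitochondrial aspartate-glutamate carrier, rose by 0.53 ± 0.13 in ahcy+/+ livers (SE, adjusted p = 0.0358 in limma), and the other 3 measured genes did not pass.

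Of 19 regulators other than cebpb, 9 stood higher and 10 lower in overfed ahcy+/+ livers. The nuclear receptor gene hnf4a differed by -0.26 ± 0.20 (SE) in ahcy+/- livers and rose by 0.67 ± 0.14 (SE, adjusted p = 0.0216 in limma) in ahcy+/+ livers, and its dimmer probe set went the other way in ahcy+/+ livers, with -0.60, and did not pass. None of the measured relatives of cebpb passed. In ahcy+/- livers cebpa differed by -2.56 ± 0.81, cebpd by -0.82 ± 0.61 and cebpg by -0.19 ± 0.30 (SE), and in ahcy+/+ livers cebpa differed by -1.75 ± 0.59 (SE, adjusted p = 0.115 in limma), cebpd by -0.21 ± 0.45 (SE) and cebpg by 0.39 ± 0.22 (SE). Of the 9 measured glucocorticoid-induced genes other than tat, 5 stood higher and 4 lower in overfed ahcy+/+ livers, and 1 passed: tsc22d3, which encodes a glucocorticoid-induced leucine zipper protein, rose by 1.04 ± 0.25 (SE, adjusted p = 0.0319 in limma). None of the 14 genes of glucose use and storage passed, and 11 of them stood lower there, as 55.6% of all probe sets did. Their median was -0.06, against -0.03 over all probe sets. In ahcy+/- livers 9 of the 14 stood lower, against 63.1% of all probe sets.

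Leaving out 1 array ended the calls of mdh1ab, slc25a12, hnf4a and tsc22d3. The highest adjusted p in limma was 0.0851 for mdh1ab without regular-diet ahcy+/+ array 5, 0.101 for slc25a12 without array 2, 0.0732 for hnf4a without array 2 and 0.102 for tsc22d3 without array 5, all of the same group. The call of mdh1ab also ended with quantile normalization (adjusted p = 0.0507), median centring (0.0532) and either marker covariate, that of hnf4a with the compared groups alone (0.0523), and that of tsc22d3 with the compared groups alone (0.059), quantile normalization (0.0649) and the pancreas and intestine covariates (0.0615). The genes cbsb and bckdk passed in each fit that left out 1 array.

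**Figure D5:**
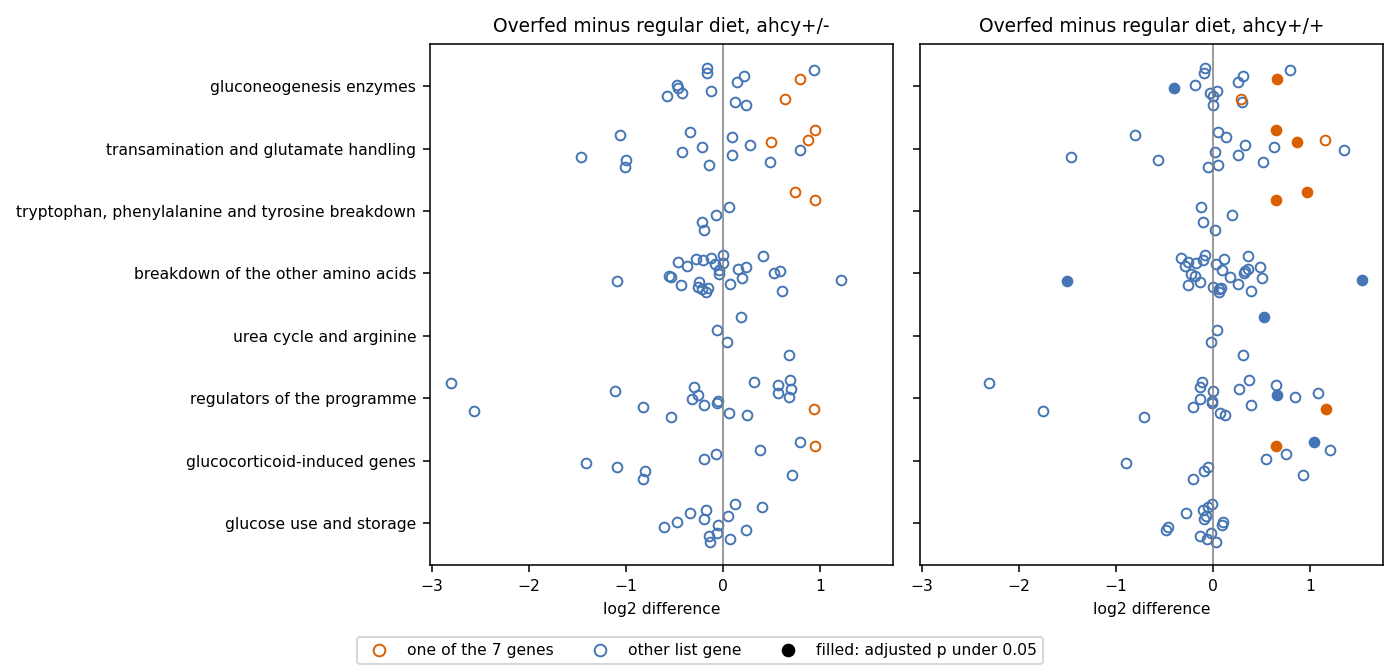
Log2 difference of the overfed minus the regular diet (horizontal axis) of each measured gene of the 8 lists (rows), in ahcy+/- livers on the left and ahcy+/+ livers on the right. Filled points have an adjusted p under 0.05 in limma, and a gene in several lists is drawn in each. The 7 genes lie to the right of 0 in both panels, the other genes lie on both sides, and no point is filled for ahcy+/- livers.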

How the data were processed

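Liver RNA of 14 adult zebrafish samples was measured on a single-colour Affymetrix array. The authors deposited 1 log2 value per probe set and array; per the submitters' processing notes, GCRMA and Partek were used, in an order and role that are not given in the sources used here. That the values are log2 was read from their range. GCRMA can compress or exaggerate differences of dim probe sets. The scanner files were not used here.

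Of 15617 probe sets, 115 controls were left out, as were 368 that exceeded a log2 value of 4 on fewer than 2 arrays. Symbols came from the platform annotation, which gives 1 gene for 10795 of the 15502 probe sets other than controls, several for 135 and none for 4572; 1 symbol was updated by Entrez ID. List genes were matched by exact symbol, and g6pc1a.1, g6pc1b, gpt2l and tdo2b were not analysed here. A gene with several probe sets was read from the one with the highest mean.

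A model with 1 mean per group was fitted over the 14 arrays by lmFit and eBayes of limma 3.58.1 under R 4.3.3 (10 residual and 3.06 prior degrees of freedom), with Benjamini-Hochberg adjustment over all 15134 probe sets in each contrast and a threshold of 0.05. The fit was tested on simulated data with known changes. The level of ahcy was compared by exact permutation. The labels give each sample a group and a number; 1 overfed ahcy+/+ array is number 4 in its title and 5 in its description, and the title was used.

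The 7 genes, the 8 lists and the marker genes were chosen with earlier results of these data known. Named genes were the 7, list genes past the threshold up to 6 a list, the measured genes of a planned set of paralogues, the 2 genes most like each of the 7, and ahcy. That set did not hold gpt2 or cebp1. The list genes slc37a4a, mdh1aa and gpt2 were named besides. Alternatives were no filter, a filter at 6, trend and robust moderation, array weights, a fit of the compared groups alone, median centring, quantile normalization, the levels of vitellogenin or of pancreas and intestine markers as covariates, 1 probe set per gene, the replicate number as a block and fits without each array in turn; the hepatocyte covariate was chosen after the data had been seen. Matplotlib 3.10.9 under Python 3.11.15 drew the figures.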

Additional observations from a re-analysis of the deposited data

Results flagged for a closer look

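In regular-diet ahcy+/+ livers cebpb read 10.21 on array 9, against 10.76, 10.80 and 10.85 on the other 3 arrays of that group. The gap to the nearest array made up 0.855 of the range of the group, above the critical value of 0.829 for 4 samples. Chance marks about 1 in 20 groups, and 16 were looked at. Array 9 also had the highest vitellogenin and the lowest hepatocyte marker level of all arrays. Without it the diet difference of cebpb in ahcy+/+ livers was 1.02, against 1.17 with it.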

How the results depend on the processing

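The 7 genes kept the sign of both diet differences under every alternative, the second probe set of gpt excepted. In ahcy+/+ livers the 681 calls became 1949 with array weights, 1090 with the vitellogenin covariate and 6 with the replicate number as a block, and 253 to 1341 with 1 array left out (outside 1.5 times without overfed arrays 4 and 6 and regular-diet arrays 2, 5, 6 and 9 of ahcy+/+). The split of 465 higher and 216 lower became 628 and 167 with median centring, 1066 and 883 with array weights and 439 and 410 with the hepatocyte covariate. Of the 7 genes, chosen with this comparison known, 5 were called there, 3 with quantile normalization (tat and cebpb lost, tat at 0.36, and g6pc1a.2 fell to 0.07), 0 with the block and 4 to 6 with 1 array left out. In ahcy+/- livers the 15 calls became 0 with the compared groups alone, 80 with array weights, 31 with quantile normalization, 64 with median centring (58 higher and 6 lower, against 10 and 5), 27 with vitellogenin, 51 with pancreas and intestine covariates, 85 with the hepatocyte covariate and 0 with the block, and 0 to 91 with 1 array left out. The 0 calls among the 7 genes became 1 with array weights (pck2), 2 with median centring (pck2 and tat), 1 with pancreas and intestine covariates (tat), and 0 to 1 with 1 array left out. Genotype after overfeeding gave 0 to 4 calls and the interaction 0 to 4 with 1 array left out, and the interaction 1 without the filter; none was of the 7 genes.

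Differences near 0 changed sign. For genotype on the regular diet pck2 became -0.018 with array weights, -0.12 with quantile normalization, -0.044 with median centring, -0.013 with vitellogenin, -0.014 with pancreas and intestine and -0.019 with hepatocyte covariates; tat 0.055 with array weights; gpt -0.15 with pancreas and intestine; tdo2a -0.04 with quantile normalization; and cebpb -0.075 with quantile normalization, -0.007 with median centring, -0.13 with vitellogenin and -0.089 with hepatocyte covariates. For genotype after overfeeding g6pc1a.2 became -0.11 with quantile normalization, -0.011 with pancreas and intestine and -0.015 with hepatocyte covariates, gpt 0.009 with the hepatocyte and cebpb 0.012 with the vitellogenin covariate. For the interaction gpt became 0.03 with pancreas and intestine and cebpb 0.14 with vitellogenin. The cause was not tested.

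With 1 array left out, genotype on the regular diet ran from -0.027 to 0.037 for pck2, -0.22 to 0.033 for tat, -0.12 to 0.48 for gpt, -0.019 to 0.35 for tdo2a and -0.23 to 0.25 for cebpb. After overfeeding it ran from -0.054 to 0.06 for g6pc1a.2, -0.52 to 0.43 for gpt, -1.14 to 0.15 for its second probe set, -0.34 to 0.012 for got2b, -0.09 to 0.009 for tdo2a and -0.42 to 0.044 for cebpb. The interaction ran from -0.75 to 0.20 for gpt and -0.47 to 0.046 for cebpb, and the diet difference of the second gpt probe set in ahcy+/- livers from -0.82 to 0.47.

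The replicate numbers were not taken to pair samples, as the labels do not say that they do. Same-numbered arrays of different groups had deviations from their group means that correlated at -0.23 to 0.16. No values for differently numbered arrays are given beside these, so the correlations cannot decide whether the numbers pair samples. With the number as a block, which leaves 2 residual degrees of freedom, genotype on the regular diet became -0.13 for gpt and -0.52 for its second probe set, genotype after overfeeding -0.052 for pck2, -0.25 for g6pc1a.2, -0.043 for tat and 0.03 for got2b, and the interaction -0.13 for pck2 and -0.014 for g6pc1a.2. Under the block the adjusted p of cbsb was 0.119 and that of bckdk 0.058.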

Other observations

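Of the 8 lists 2 were singled out after their interaction values were seen, because these lay to one side. Of the genes of transamination and glutamate handling other than the 7, 13 of 13 had an interaction (diet difference in ahcy+/- minus that in ahcy+/+ livers) below 0, with a median of -0.27, and of the glucocorticoid-induced genes other than tat 9 of 9 did, with a median of -0.72. These values are signed, so an interaction below 0 can also be a larger decrease in ahcy+/- livers. Other lists leaned the same way, with 10 of 12 gluconeogenesis genes, 14 of 19 regulators and 19 of 28 genes of the breakdown of other amino acids below 0, the 7 genes not counted. Over all probe sets 62.0% were below 0 and the median was -0.06, and no gene of these lists passed the threshold in limma. That median was -0.007 with each array centred on its median and -0.004 with quantile normalization. The list counts given here are from the values as deposited, so they include this shift. Among the 7 genes 3 had an interaction above 0, and tat was one of them with 0.30.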
